A study of Mus musculus with 20 samples.

Results

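*Peg13* and the genes around it on mouse chromosome 15 were followed in cochlear RNA-seq libraries of 2 genotypes, *Bai1* tm2b/+ (Het) and *Bai1* tm2b/tm2b (Homo). The 5 genes described are *Peg13*, *Trappc9*, *Ago2*, *Chrac1* and *Ptk2*, out of 24409 gene symbols in the tables. They are listed genes of the *Peg13* domain, upstream of *Adgrb1* (the gene that encodes BAI1) and less than 2 Mb from it. The tables hold 7 other genes on that side within the same distance. The list was drawn up with the genotype values of these same libraries in view. Their genotype differences are therefore a description and carry no p value. All 5 passed the filter on low values in each of the 3 sets of libraries. The question behind the comparison is whether genes linked to the targeted allele differed between genotypes.

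Each library came from a pool of 4 mice, from which the sensory epithelium and the spiral ganglion neurons were dissected. The Het and the Homo group each had 3 libraries at P22 (22 days of age), deposited as estimated counts. At P7 (7 days) there were 7 libraries of each genotype, of which replicates 5 to 7 were deposited as estimated counts and replicates 1 to 4 as whole numbers that behave as TPM, a level per transcript length, rounded by the authors. All mice were on the C57BL/6N background, and every mouse carried at least 1 tm2b allele, a constitutive allele with a lacZ cassette that lacks exons 3 and 4. No wild-type library was analysed here, and the labels do not say which parent passed on the tm2b allele in the Het mice. Homo mice were littermates of Het mice, and pools of one genotype are separate samples by the labels, but which pools share a litter is not stated, so p values measure the spread between these pools. Libraries in counts summed to between 31108551 and 58807173 estimated counts. The depth of the libraries in TPM is unknown.

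Genomic imprinting leaves a gene expressed mainly from the copy inherited from a particular parent. *Peg13* is an imprinted noncoding RNA made from the paternal copy, and it lies inside an intron of *Trappc9*. In mouse brain, *Trappc9*, *Chrac1*, *Ago2* and the more distant *Kcnk9* are transcribed preferentially from the maternal copy, a bias best known from neurons. The values used here sum both parental copies and cannot separate them.

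In the GENCODE M21 annotation of GRCm38 (mm10), *Peg13* (ENSMUSG00000106847.1) is a single exon of 4725 bp on the minus strand, chr15:72805600-72810324. It sits inside a *Trappc9* intron of 50766 bp (chr15:72801403-72852168), and *Trappc9* is transcribed from the same strand. Reads from unspliced *Trappc9* RNA over this stretch would therefore count as *Peg13* with or without strand. The exons of *Peg13* and *Trappc9* do not overlap. The annotated RNA has a GC content of 51.6% and a longest reading frame from an ATG of 106 codons. Its first 120 bases, chr15:72810205-72810324 on the minus strand, are printed here from the GENCODE transcript because this RNA had the largest difference at P22 among the members whose groups did not overlap, and no base is marked.

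Peg13, bases 1 to 120: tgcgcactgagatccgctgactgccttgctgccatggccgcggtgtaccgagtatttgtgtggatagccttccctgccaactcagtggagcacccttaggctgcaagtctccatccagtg

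*Trappc9* (ENSMUSG00000047921.16) runs over 471585 bp, chr15:72589620-73061204, on the minus strand. *Chrac1* (ENSMUSG00000068391.8) lies on the plus strand at chr15:73090392-73097554, and *Ago2* (ENSMUSG00000036698.11) on the minus strand at chr15:73095844-73184935. The last exons of *Chrac1* and *Ago2* overlap tail to tail over 219 bases, which are 9.31% of the exon bases of *Chrac1* and 1.56% of those of *Ago2*. Since the sources do not state whether counting used strand, reads from this overlap may have been credited to either gene. *Ptk2* (ENSMUSG00000022607.17) lies on the minus strand at chr15:73205102-73423280. Gaps to *Adgrb1* (plus strand, chr15:74516195-74589465) are given in kb, negative on the *Peg13* side. *Ptk2* is the member nearest to *Adgrb1*, at -1092.9 kb, and *Peg13* is the farthest, at -1705.9 kb. Just inside the limit of 2 Mb, but not on the list, is *Kcnk9* at -1969.9 kb. The next gene in the tables on that side, *Col22a1*, lies just outside at -2482.0 kb and had log2 fold changes of -0.95 (SE 0.649) at P22, -0.03 (SE 0.359) in the P7 counts and 0.13 (SE 0.174) in the P7 TPM.

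Levels between genes can be compared only per length. In Het libraries at P22, counts scaled to the library total (CPM, with TMM scaling between libraries) divided by annotated exon kilobases put *Peg13* first, at 102 ± 6.89 (SD, n = 3). *Trappc9* followed at 13.8 ± 0.386, *Chrac1* at 9.82 ± 0.531, *Ptk2* at 3.73 ± 0.124 and *Ago2* at 2.53 ± 0.507. No neighbours in this order overlapped between libraries. On the same scale in the P7 libraries in counts, *Peg13* was again first, at 26.5 ± 9.54 (SD, n = 3). *Chrac1* (9.61 ± 0.335) and *Trappc9* (9.22 ± 0.397) overlapped, and were followed by *Ptk2* (7.44 ± 0.152) and *Ago2* (3.80 ± 0.479). In the P7 libraries in TPM, which divide by the lengths that Salmon used, *Chrac1* led with 87.7 ± 5.38 TPM (SD, n = 4), ahead of *Peg13* with 59.7 ± 8.86 TPM. *Ptk2* (32.2 ± 1.04 TPM), *Trappc9* (26.2 ± 1.20 TPM) and *Ago2* (9.09 ± 0.941 TPM) followed without overlap. The 2 orders at P7 come from different libraries, and also differ in unit and in the length divided by, which cannot be told apart. The P7 and P22 tables were made separately, so age and table cannot be told apart and the ages were not compared.

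*Adgrb1*, the targeted gene, checks the labels only in part, since one value per gene sums long and short isoforms. Homo libraries lay below all Het libraries at P22 (log2 fold change -0.61, SE 0.0585) and in the P7 counts (-0.64, SE 0.227, and -0.36 without Het replicate 6), whereas the genotypes overlapped in the P7 TPM (0.02, SE 0.130). Of the cell types dissected, markers of spiral ganglion neurons and of hair cells were measured in all sets, 9 of 9 and 8 of 8. In the P7 TPM, the log2 fold change across 11680 genes with a known length moved with exon length (Spearman's rho 0.503, across genes, which are not independent replicates). Its median was -0.14 in genes of at most 2841 exon bases and 0.14 in genes of at least 6946. The same rho was -0.201 at P22 and 0.0854 in the P7 counts.

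*Peg13* was lower in Homo than in Het cochleae at P22, by a margin larger than the spread between pools, while the P7 sets had opposite signs. At P22, *Peg13* measured 485, 449.5 and 514 CPM in Het and 364, 376 and 395 CPM in Homo pools. The groups did not overlap, with the Homo pools lower, and the lowest deposited value was 14821 counts, so that counting error was small. The log2 fold change (Homo over Het) was -0.35 (SE 0.0642), a level 0.783 times that of Het. Fits that left out a pool gave between -0.40 and -0.30.

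Counts at P7 put *Peg13* at 82.7, 172 and 121 CPM in Het replicates 5, 6 and 7 and 80.3, 90.5 and 114 CPM in Homo replicates 5, 6 and 7. The genotypes overlapped, and Het replicate 6 stood well above the rest. The log2 fold change was -0.40 (SE 0.259) with that library and -0.10 without it. Without replicate 5 of Het, the lowest of its group, it was -0.62.

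The libraries in TPM at P7 had the opposite sign. *Peg13* measured 63.2, 70.3, 50.3 and 54.9 TPM in Het replicates 1 to 4 and 56.1, 85.0, 81.2 and 77.4 TPM in Homo replicates 1 to 4. Replicate 1 of Homo lay within the Het range and the other three above it. The log2 fold change was 0.32 (SE 0.137) on the log2(TPM + 1) scale, a scale that understates changes of low genes, and stayed between 0.24 and 0.44 with any one library left out. The plot of values by library shows the 5 genes side by side.

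**Figure D1:**
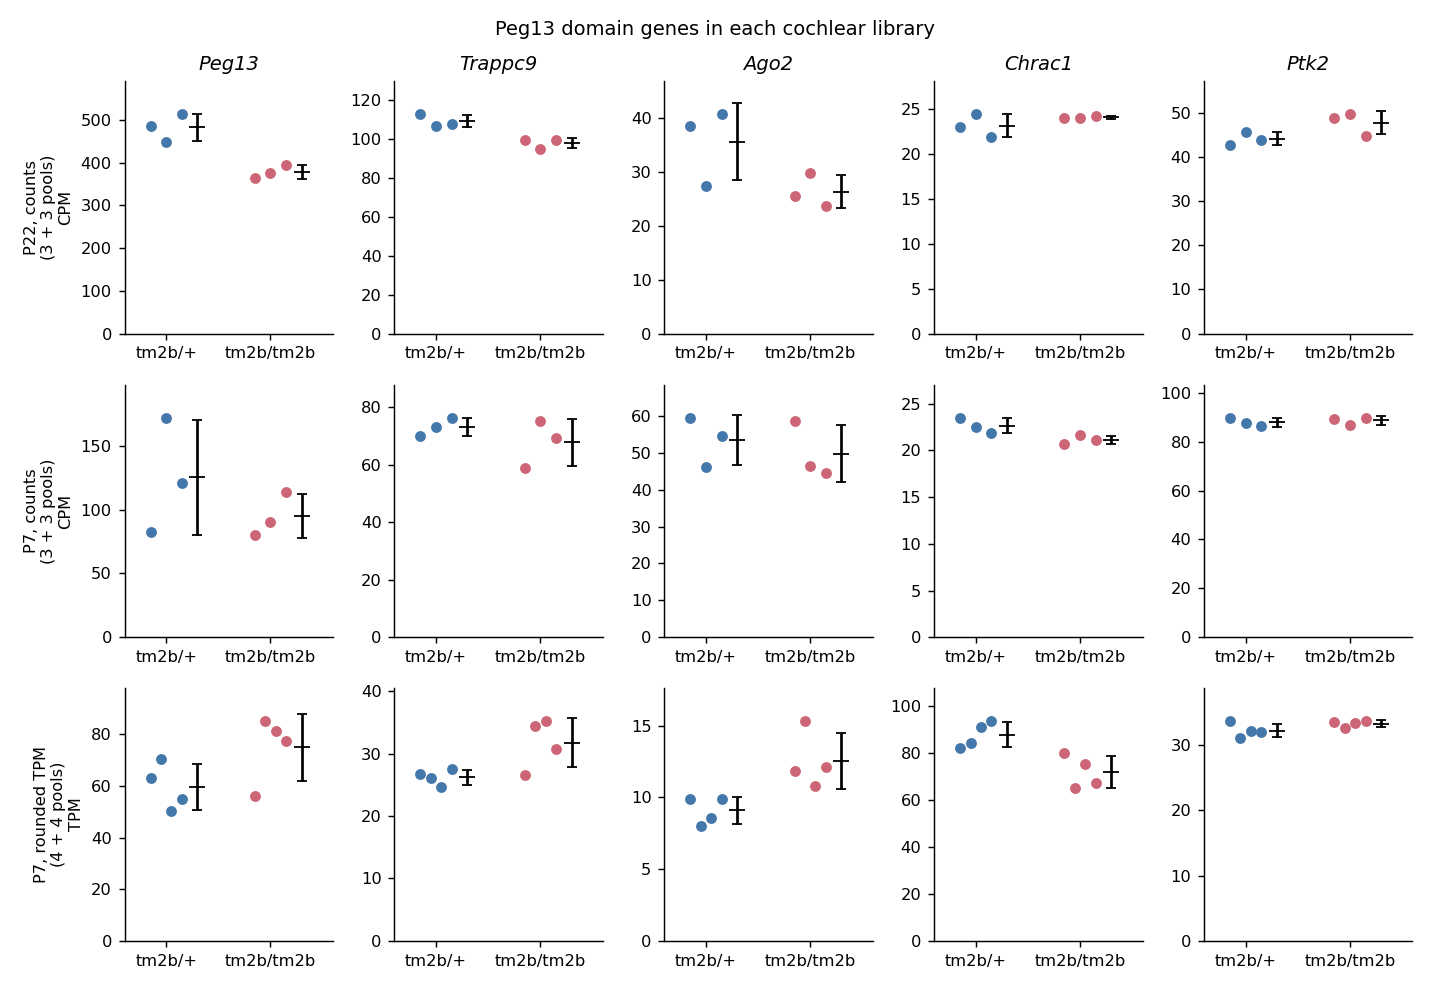
Values of the 5 genes in each library, by genotype, as TMM-scaled CPM at P22 (top row) and P7 (middle row) and as TMM-scaled TPM at P7 (bottom row). Points are pools, and black bars give the mean and SD beside them. *Peg13* at P22 separates the genotypes (364 to 395 against 449.5 to 514 CPM), while in the middle row a single Het library at 172 CPM stands apart.

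The level of *Peg13* moved with that of spiral ganglion neuron markers from library to library. The 9 markers are *Tubb3*, *Nefl*, *Nefm*, *Nefh*, *Snap25*, *Stmn2*, *Rbfox3*, *Elavl3* and *Ntrk3*, among them neurofilament and synaptic genes, and none was at 0. At P22 they summed to 12339.7 to 13764 CPM in Het pools and 9578 to 10691 CPM in Homo pools, without overlap, and the median of their log2 fold changes was -0.30. The markers did not move alike. Their values at P22 ran from -0.52 (*Nefh*, called lower) to -0.10 (*Rbfox3*) and 0.08 (*Ntrk3*). In the P7 counts they ran from -0.95 (*Nefh*) to 0.10 (*Elavl3*), and in the P7 TPM from 0.00 (*Snap25*) to 0.65 (*Nefm*). Sums in the P7 counts were 1322 to 2774 and 1212 to 1689, and in the P7 TPM 1292 to 2364 and 1844 to 2699. The highest sum in the P7 counts was that of Het replicate 6, the library in which *Peg13* was highest. In each set, the genotype with the lower median level of *Peg13* was also the one with the lower marker median. In bulk tissue, a smaller share of neurons in the dissected tissue and less RNA per neuron cannot be told apart. The paper counted afferent fibres in the apical region of adult mice and found no significant difference between genotypes. It also showed spiral ganglion neuron cell bodies in both, without a count. Both observations came from mice older than those of these libraries.

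Once the mean of each table and genotype had been removed, *Peg13* and the marker sum correlated with r = 0.931 over the 12 libraries in counts, which share tissue and protocol. The value was between 0.860 and 0.977 with each library left out. It rested mostly on P7, with r = 0.951 over the 6 P7 libraries in counts against 0.368 over the 6 at P22, where it ranged from -0.176 without Het replicate 3 to 0.977 without Homo replicate 1. In the 8 libraries in TPM, r was 0.768. With the sum of 8 hair cell markers, *Peg13* had r = -0.628 over the 12 libraries in counts.

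Set against the same markers, *Peg13* overlapped between genotypes in all 3 sets. Per 100 marker counts it had 3.64 ± 0.0562 counts in Het and 3.86 ± 0.360 in Homo libraries at P22 (SD, n = 3 each). The P7 counts gave 6.69 ± 0.892 and 6.74 ± 0.0970 (SD, n = 3 each), and the P7 TPM gave 3.40 ± 0.375 and 3.45 ± 0.486 TPM per 100 TPM of markers (SD, n = 4 each). At P22 the same division put other members higher in Homo libraries without overlap. These were *Trappc9* (0.759 to 0.864 against 0.941 to 1.03), *Chrac1* (0.154 to 0.196 against 0.226 to 0.259) and *Ptk2* (0.308 to 0.366 against 0.462 to 0.535). *Ago2* overlapped (0.220 to 0.294 against 0.241 to 0.321). With libraries scaled to the geometric mean of the markers, the log2 fold change of *Peg13* was -0.07 (SE 0.0694) at P22, -0.06 (SE 0.357) in the P7 counts and 0.00 (SE 0.202) in the P7 TPM. This scaling moved the median of all genes to 0.29, 0.26 and -0.29 in turn, and relative to other genes *Peg13* therefore stood where it did before.

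**Figure D2:**
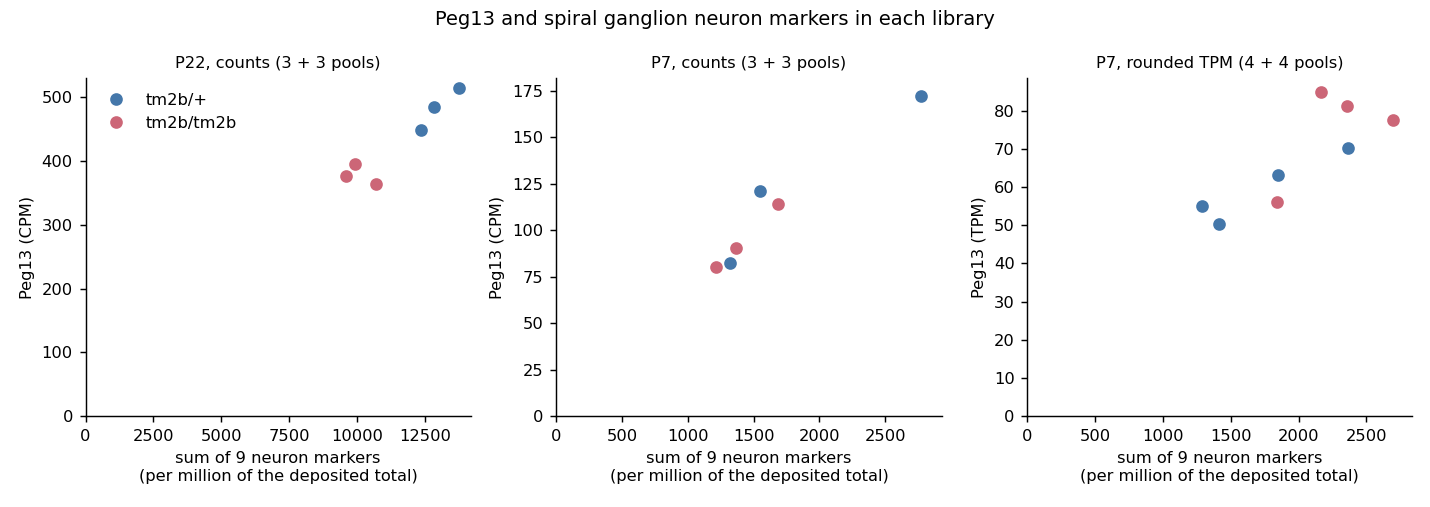
*Peg13* (vertical axis, TMM-scaled CPM or TPM) against the sum of 9 spiral ganglion neuron markers (horizontal axis, CPM or TPM of the deposited total), with each point a pool and a panel for each set. At P7 in counts the points lie close to a line from 80.3 to 172 CPM, and at P22 the genotypes occupy separate ranges of both axes.

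*Trappc9*, which encodes a subunit of the TRAPP complex in vesicle traffic, differed less than *Peg13*. At P22 it measured 113, 107 and 108 CPM in Het and 99.5, 95.2 and 99.8 CPM in Homo libraries. The groups did not overlap, and the log2 fold change was -0.16 (SE 0.0546). At P7, libraries in counts held 70.1, 73.0 and 76.4 CPM in Het and 58.9, 75.2 and 69.2 CPM in Homo libraries, which overlapped (log2 fold change -0.11, SE 0.0969, and -0.02 without Homo replicate 5). For the P7 TPM the values were 26.7, 26.1, 24.6 and 27.5 TPM in Het and 26.6, 34.4, 35.2 and 30.8 TPM in Homo replicates 1 to 4. Here too replicate 1 of Homo lay within the Het range and the other three above it, with a log2 fold change of 0.26 (SE 0.0865). After removal of the trend on exon length the value in the P7 TPM was 0.15 (SE 0.0847). Scaled to the neuron markers, with the shift of all genes given above, the sign turned in all 3 sets, to 0.12 (SE 0.0729), 0.14 (SE 0.354) and -0.05 (SE 0.189).

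The counts of *Peg13* divided by those of its host *Trappc9* need no scaling between libraries. At P22 this ratio was 4.29, 4.19 and 4.75 in Het and 3.66, 3.95 and 3.96 in Homo libraries. The genotypes did not overlap, and *Peg13* was thus lower in Homo also relative to its host. At P7 the ratio in counts was 1.18, 2.36 and 1.58 against 1.36, 1.20 and 1.65, and in the P7 TPM its mean was 2.28 ± 0.323 against 2.35 ± 0.184 (SD, n = 4), both with overlap. *Peg13* and *Trappc9* varied together weakly over the 12 libraries in counts (residual r = 0.337, and between 0.118 and 0.544 with each library left out), and *Trappc9* had r = 0.245 with the neuron markers.

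*Kcnk9* encodes a two-pore potassium channel and is another imprinted gene of the domain. Its difference had the sign of that of *Peg13* in each set, at a low level. P22 values were 5.02, 4.21 and 6.81 CPM in Het and 3.34, 4.64 and 3.00 CPM in Homo libraries, with overlap (log2 fold change -0.55, SE 0.220, adjusted p = 0.129, edgeR). The log2 fold change at P22 was -0.34 without Het replicate 3 and -0.75 without Homo replicate 2. P7 values in counts were 3.32, 7.25 and 4.17 CPM against 3.49, 2.12 and 3.65 CPM (log2 fold change -0.67, SE 0.342, adjusted p = 0.894, edgeR). The high Het value there is again that of replicate 6, without which the log2 fold change was -0.27.

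*Kcnk9* passed the test in the P7 TPM, alone among the genes of the domain. It rose from 7.90, 8.03, 6.42 and 5.49 TPM in Het to 8.86, 13.4, 12.7 and 13.1 TPM in Homo libraries, without overlap (log2 fold change 0.70, SE 0.146, adjusted p = 0.0436, limma). The deposited values behind this are whole numbers between 5 and 14, so rounding is a visible part of them. The call was lost in 6 of the 8 fits that left out a library (adjusted p between 0.0107 and 0.124, limma), after removal of the trend on exon length (0.54, adjusted p = 0.0814) and with scaling to the neuron markers (0.42, adjusted p = 0.113). Per 100 TPM of neuron markers *Kcnk9* had 0.339 to 0.433 TPM in Het and 0.488 to 0.647 TPM in Homo libraries, without overlap. *Kcnk9* had a residual r of 0.685 with *Peg13* and of 0.681 with the neuron markers over the 12 libraries in counts. Without Het replicate 6 of P7 these were 0.385 and 0.290.

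*Ago2* encodes the Argonaute protein that can cut RNA targets of small RNAs. At P22 it measured 38.5, 27.4 and 40.7 CPM in Het and 25.5, 29.8 and 23.7 CPM in Homo libraries. Of the Het libraries only replicate 2 lay within the Homo range. The log2 fold change was -0.43 (SE 0.138). Without that library it was -0.59, which met the call rule used below, and without Het replicate 3 it was -0.33. At P7 in counts it measured 59.5, 46.1 and 54.4 CPM against 58.6, 46.3 and 44.4 CPM, a log2 fold change of -0.10 (SE 0.135). The groups of the P7 TPM did not overlap and had the opposite sign, with 9.88, 8.03, 8.56 and 9.89 TPM in Het and 11.8, 15.3, 10.8 and 12.1 TPM in Homo libraries (log2 fold change 0.41, SE 0.110).

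*Ago2* has 14031 annotated exon bases, the most of the 5 genes. With the length trend removed, the log2 fold change in the P7 TPM was 0.24 (SE 0.107). *Ago2* varied more between pools of one genotype than most genes. Its pooled SD on the log2 scale was 0.244 at P22, above that of 86.9% of genes tested.

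*Chrac1* encodes a small histone-fold subunit of a chromatin accessibility complex. At P22 it measured 23.0, 24.4 and 21.9 CPM in Het and 23.9, 24.0 and 24.2 CPM in Homo libraries, with overlap (log2 fold change 0.06, SE 0.0728, an interval of 2 SE from -0.09 to 0.20). Counts at P7 gave 23.5, 22.5 and 21.9 CPM against 20.7, 21.6 and 21.1 CPM. These groups did not overlap, by a gap of less than 1 CPM, and the log2 fold change was -0.10 (SE 0.0743). TPM values at P7 were 82.0, 84.3, 91.0 and 93.4 TPM in Het and 79.7, 64.9, 75.3 and 67.2 TPM in Homo libraries, again without overlap (log2 fold change -0.29, SE 0.0764). With 2353 exon bases, *Chrac1* is the shortest of the 5 genes and lay on the other side of 0 from *Ago2* in that set. With the length trend removed its value was -0.20 (SE 0.0632).

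*Ptk2*, which encodes focal adhesion kinase, was the steadiest of the 5 genes at P7. At P22 it measured 42.7, 45.6 and 43.9 CPM in Het and 48.8, 49.7 and 44.8 CPM in Homo libraries, with overlap (log2 fold change 0.12, SE 0.0660). For P7 in counts the values were 89.7, 87.5 and 86.2 CPM against 89.4, 86.7 and 89.8 CPM, a log2 fold change of 0.01 (SE 0.0553). For P7 in TPM they were 33.6, 31.1, 32.1 and 31.9 TPM against 33.5, 32.5, 33.3 and 33.6 TPM, a log2 fold change of 0.04 (SE 0.05). Intervals of 2 SE ran from -0.10 to 0.12 and from -0.06 to 0.14 at P7. Its pooled SD on the log2 scale was 0.0284 in the P7 counts and 0.0351 in the P7 TPM, smaller than that of all but 1.07% and 0.835% of genes tested. That of *Peg13* in the same sets was 0.416 and 0.241, larger than that of 93.8% and 91.5% of genes.

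**Figure D3:**
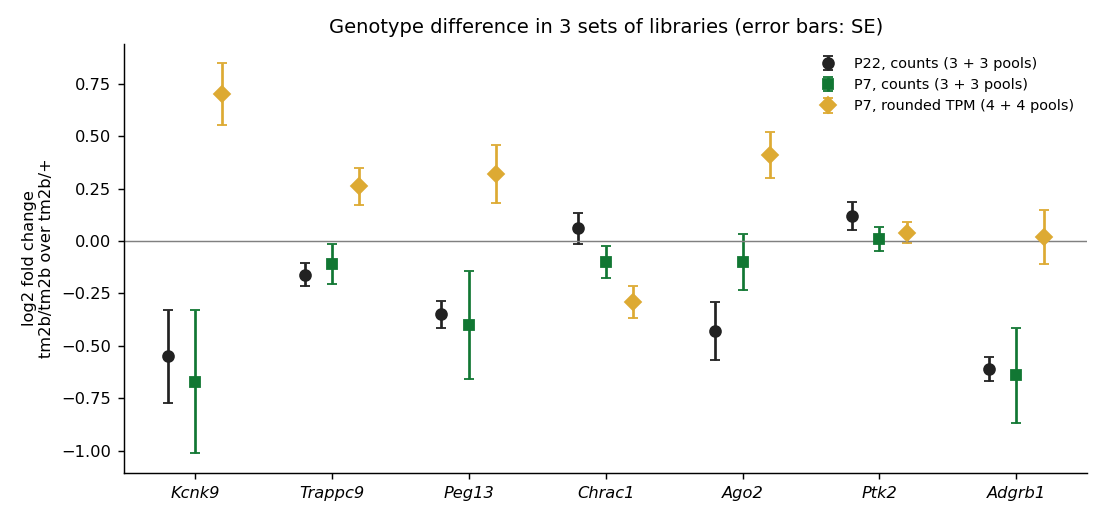
Log2 fold change (Homo over Het) with its SE (error bars) for the 5 genes, *Kcnk9* and *Adgrb1*, in order of gene start on the chromosome, with a symbol for each set. *Kcnk9*, *Peg13*, *Trappc9* and *Ago2* lie below 0 in both sets in counts and above 0 in the P7 TPM, from -0.67 to 0.70 for *Kcnk9*.

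Genes were called when the SE was under 0.5, the log2 fold change beyond 0.5 on either side of 0 and the adjusted p below 0.05. By this rule 0 of the 5 genes were called at P22, where 3.15% of 15443 genes were. Likewise 0 of the 5 were called in the P7 counts, as were 0% of 16026 genes with edgeR. There 763 genes (4.76%) had an unadjusted p value under 0.05 (edgeR), close to the share that this limit gives when no gene differs. With so few pools, that share cannot show that no gene differed. The same share was 28.7% at P22 (edgeR) and 34.6% in the P7 TPM (limma). DESeq2 called 48 genes in the P7 counts. Again 0 of the 5 were called in the P7 TPM, against 0.826% of 11740 genes (limma). In these fits all log2 fold changes of the 5 genes were smaller than 0.5. The groups did not overlap for 2 of the 5 genes at P22 (*Peg13* and *Trappc9*), against 33.7% of all genes, for 1 of 5 in the P7 counts (*Chrac1*), against 10.4%, and for 2 of 5 in the P7 TPM (*Ago2* and *Chrac1*), against 18.2%. The median log2 fold change of the 5 genes was -0.16 at P22, -0.10 in the P7 counts and 0.26 in the P7 TPM, beside 0.01, 0.00 and 0.01 over all genes tested. Since the genotype contrast was in view when the list was made, nothing is read from these shares.

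Genes chosen by distance alone give the setting. The tables hold 84 other genes with a gap of less than 2 Mb to *Adgrb1*, of which 57 were tested at P22. There 2 fell and 0 rose, 3.51% against the 3.15% of all genes, and their median log2 fold change was 0.02. *Mafa*, which encodes a transcription factor of the large Maf family, fell from 18.9 ± 2.23 to 6.54 ± 1.09 CPM (SD, n = 3) with a log2 fold change of -1.52 (SE 0.139, adjusted p = 0.000554, edgeR), and held its call in all 6 fits that left out a library. *Arc*, an immediate early gene of active neurons, fell from 8.55 ± 0.566 to 5.84 ± 1.10 CPM (SD, n = 3), a log2 fold change of -0.55 (SE 0.15, adjusted p = 0.0386, edgeR). *Arc* lost its call in 5 of those fits (adjusted p at most 0.124) and with scaling to the neuron markers (-0.26, adjusted p = 0.222).

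Both of these genes lie on the far side of *Adgrb1* from *Peg13*, *Arc* at a gap of 79.6 kb and *Mafa* at 1156.0 kb. On the *Peg13* side, 5 other genes were tested at P22 and 0 were called, with log2 fold changes from -0.55 (*Kcnk9*) to 0.15 (*Dennd3*). *Dennd3*, *Slc45a4*, *Gpr20* and *Ptp4a3* lie between *Ptk2* and *Adgrb1*, closer to the targeted gene than any of the 5. At P7, 0 of 57 neighbours were called in the counts, where the sign of *Mafa* was the opposite (1.12, SE 0.411, adjusted p = 0.894, edgeR) at no more than 1.39 CPM on average. Of 45 tested in the P7 TPM 1 was called, *Kcnk9*, and the median of the neighbours was 0.03.

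**Figure D4:**
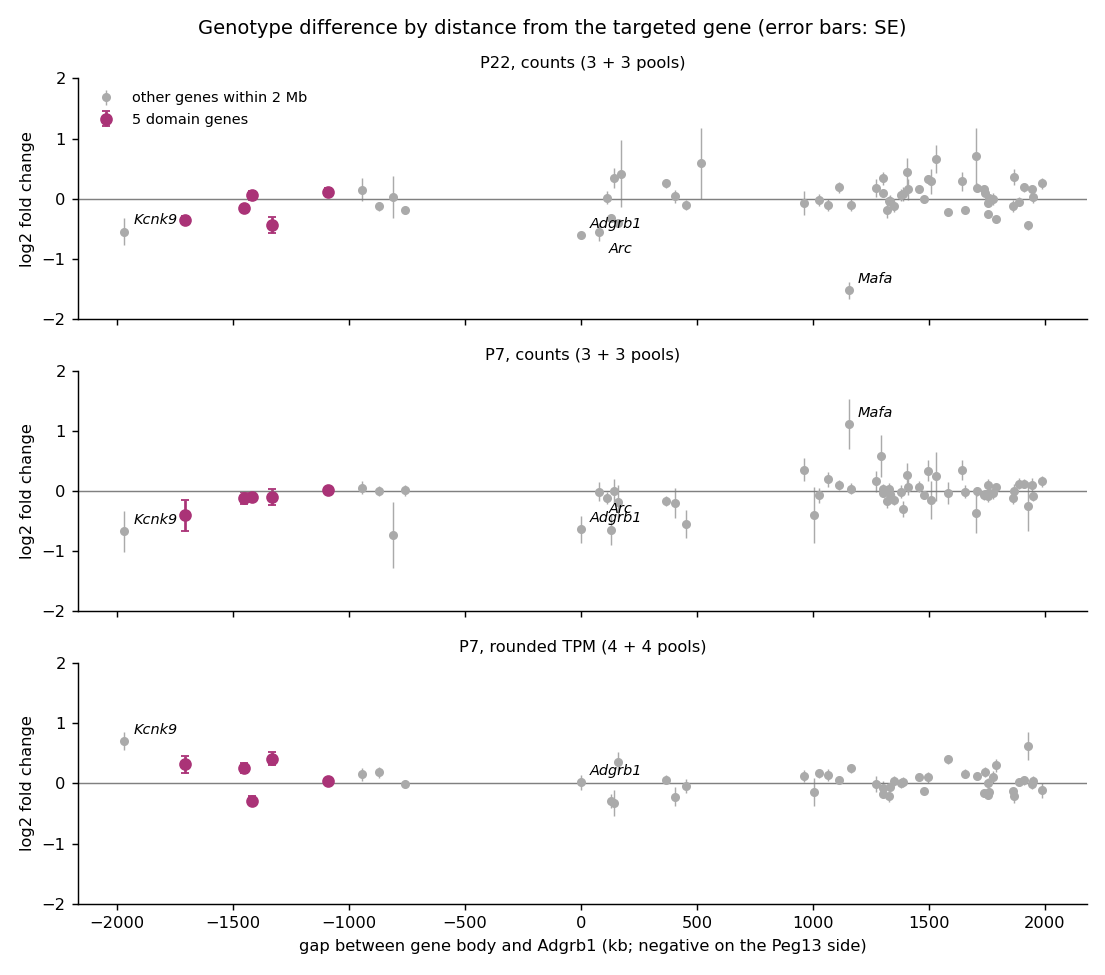
Log2 fold change with its SE (error bars) against the gap in kb between a gene and *Adgrb1*, for the genes tested within 2 Mb, with a panel for each set. The 5 domain genes (purple) lie between -0.43 and 0.41, among the other genes (grey), and *Mafa* at -1.52 stands apart at P22.

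With all libraries, the partners of the 5 genes gave no call in any of the 3 sets. None of 13 other TRAPP subunits tested was called at P22, in the P7 counts or in the P7 TPM, with log2 fold changes from -0.22 (*Trappc12*) to 0.15 (*Trappc6a*) at P22 and medians of -0.12, -0.07 and -0.07. Of 12 genes of the Argonaute and microRNA machinery, 12, 12 and 10 were tested and 0 were called, with medians of -0.06, 0.05 and 0.22. At P22 the Argonaute paralogs had log2 fold changes of 0.00 for *Ago1* (SE 0.0670, adjusted p = 0.997, edgeR), -0.40 for *Ago3* (SE 0.185, adjusted p = 0.183) and 0.25 for *Ago4* (SE 0.105, adjusted p = 0.15). Without Het replicate 2, the library in which *Ago2* was low, *Ago3* was called lower (-0.58, adjusted p = 0.0331, edgeR), and without Het replicate 3 it was at -0.20 (adjusted p = 0.535, edgeR). *Ago1* in the P7 TPM was at 0.25 (SE 0.0555, adjusted p = 0.0439, limma), short of the limit of 0.5.

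Of 12 genes of the ISWI chromatin remodelling complexes, to which *Chrac1* belongs, 12, 12 and 11 were tested and 0 were called (medians -0.03, 0.00 and 0.12). Of 19 genes of focal adhesions, 19, 19 and 17 were tested and 0 were called (medians -0.03, -0.05 and 0.20). *Ptk2b*, the paralog of *Ptk2*, had a log2 fold change of 0.28 at P22 (SE 0.113, adjusted p = 0.127, edgeR) and 0.41 in the P7 counts (SE 0.116, adjusted p = 0.894, edgeR). The list medians in the P7 TPM stood beside the length trend given above, whose part in them was not tested.

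Other imprinted noncoding RNAs included genes that rose at P22. Of 7 tested, 3 rose and 0 fell (42.9%, beside 3.15% of all genes), with a median log2 fold change of 0.42. *Meg3*, a maternally expressed RNA of the Dlk1-Dio3 domain, rose from 707 ± 90.3 to 1193 ± 118 CPM (SD, n = 3), a log2 fold change of 0.75 (SE 0.0993, adjusted p = 0.00240, edgeR), and held its call with each library left out. *H19*, the maternally expressed RNA beside *Igf2*, rose by 0.63 (SE 0.145, adjusted p = 0.0196, edgeR) and lost its call in 3 of 6 such fits. *Kcnq1ot1*, a paternally expressed RNA that silences neighbouring genes, rose by 0.52 (SE 0.138, adjusted p = 0.0352, edgeR) and lost it in 5. At P7 *Meg3* was at 1.04 (SE 0.322, adjusted p = 0.894, edgeR) in the counts, and at 0.54 there without Homo replicate 5. With scaling to the neuron markers it was called in the counts (1.37, adjusted p = 0.0475, edgeR). It was at -0.21 (SE 0.223, adjusted p = 0.532, limma) in the TPM. With TMM scaling at P7, 0 of 7 genes of this list were called in the counts and 0 of 5 in the TPM.

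Among all 15214 other genes tested in both sets of counts, those whose library-to-library pattern was most like that of *Peg13* were *Gpr75* (residual r = 0.994), *Mapk10* (0.990) and *Sema3e* (0.990), over 12 libraries. *Mapk10* encodes a JNK kinase enriched in neurons. The median r over all genes was 0.00393, and the highest of so many values is a description only. None of these genes lies in the domain. Within the domain, *Peg13* and *Ago2* had a residual r of -0.441 over the 12 libraries, made of 0.602 over the 6 at P22 and -0.855 over the 6 in the P7 counts, which have opposite signs. *Peg13* and *Chrac1* had -0.364, and 0.00527 without Het replicate 5 of P7. *Trappc9* and *Ago2* had -0.422, and -0.0382 without Homo replicate 5 of P7. *Ago2* and *Chrac1* had -0.542, and -0.115 without Het replicate 2 of P22. The other 6 pairs of members had values from -0.450 to 0.337, and these too moved with single libraries. Over the 12 libraries, *Peg13* had an r of 0.841 with *Adgrb1*, and of 0.590 without Het replicate 6 of P7. *Adgrb1* itself had an r of 0.885 with the sum of the neuron markers, and of 0.593 without that library. The part of the neuron markers in the value for the pair was not tested.

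Markers of some other cells moved with genotype as well. Of 6 central glia markers, 4 were called higher at P22, where 3.15% of all genes were called in either direction. Their sums were 467 to 596 CPM in Het against 677 to 1076 in Homo libraries. The median log2 fold change of these markers was 0.68 at P22, 0.40 in the P7 counts (0 called) and -0.38 in the P7 TPM, where 1 fell and 0 rose. Of the 5 genes, *Ptk2* had the highest residual r with that sum (0.813 over the 12 libraries in counts). Hair cell markers (8 genes) summed to 379 to 395 CPM against 487 to 589 CPM at P22, with 2 called higher. In the P7 TPM, where 0.826% of all genes were called, 1 of them was called higher. Their sums there overlapped, at 353 to 541 TPM in Het and 284 to 502 TPM in Homo libraries. The median log2 fold change was 0.04. In the P7 counts the sums also overlapped, with a median of 0.14 and 0 called. Brain neuron markers (7 genes) summed to 16.9 to 23.8 CPM in Het and 17.9 to 31.1 CPM in Homo libraries at P22. The same sums in the P7 counts were 47.0 to 64.3 CPM against 89.5 to 112 CPM, without overlap, and the 6 genes tested had a median log2 fold change of 0.72, with 0 called. The P7 TPM gave 20 to 40 against 24 to 62 TPM, and there *Tbr1* and *Gabra6* were listed at 0 in all libraries. Sums at P22 of 6 Schwann cell and myelin genes overlapped, at 14365 to 16047 CPM against 15994 to 17657 CPM. There 1 gene was called higher, but the median log2 fold change of the list was -0.10. In the P7 counts that median was -0.49 and in the P7 TPM -0.05, with 0 called and overlapping sums in both. Macrophage sums (6 genes) were 109 to 130 CPM against 135 to 177 CPM at P22, without overlap and with 0 called. Those of 5 erythroid and 4 bone genes overlapped at P22, and 1 erythroid gene was called lower in the P7 TPM. The part of these cells in the values of the 5 genes was not tested.

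**Figure D5:**
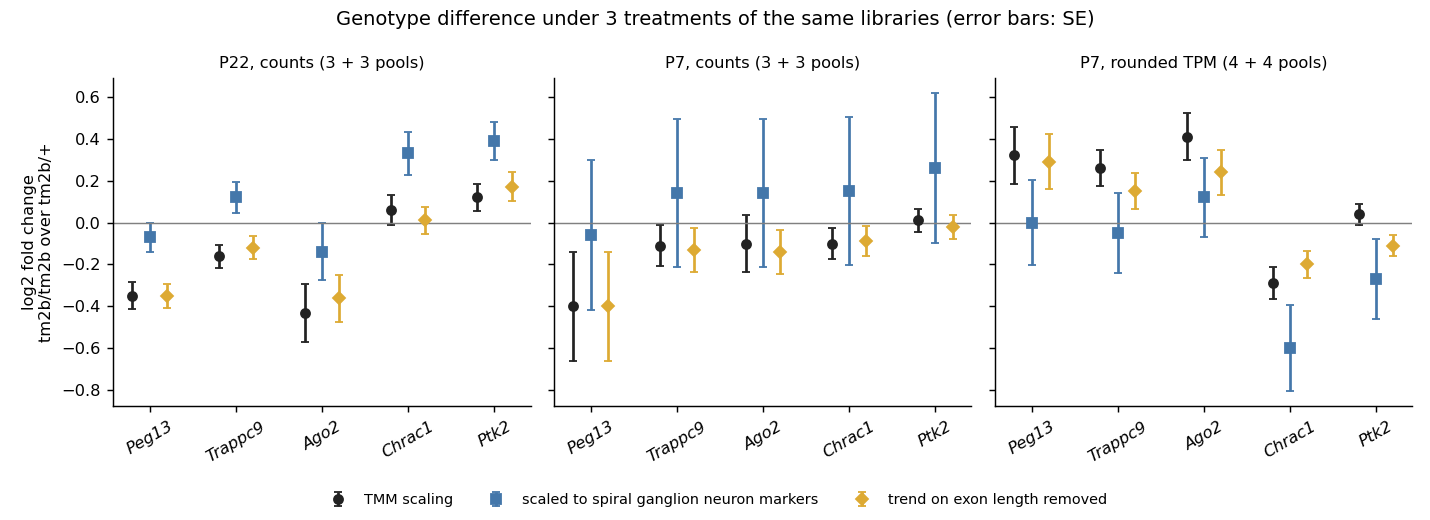
Log2 fold change with its SE (error bars) of the 5 genes under TMM scaling (black), scaling to 9 spiral ganglion neuron markers (blue) and TMM scaling with a trend on exon length removed (yellow), with a panel for each set. *Peg13* moves to between -0.07 and 0.00 in all panels under neuron marker scaling, which shifts the median of all genes too, and *Ago2* at P7 in TPM moves from 0.41 to 0.24 once the length trend is removed.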

How the data were processed

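Per the labels and methods, the authors sequenced poly A libraries in pairs, aligned them to mm10 in the nf-core pipeline and quantified genes with Salmon. Versions and the use of strand are not given in the sources used here. P22 and P7 replicates 5 to 7 were deposited as estimated counts per gene, not normalized. P7 replicates 1 to 4 were deposited as a score, which matches rounded TPM. The labels mention dissection batches at P7 without assigning libraries to them. The paper describes P7 batches of 4 and of 3 samples per genotype, which are also the sizes of the sets in TPM and in counts. Unit and batch therefore cannot be told apart.

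Estimated counts were rounded, filtered with filterByExpr, scaled by TMM and tested by quasi-likelihood in edgeR 4.0.16 (R 4.3.3). DESeq2 1.42.0 was an alternative. Genes averaging 5 TPM or more were scaled by TMM and tested as log2(TPM + 1) in limma 3.58.1. The p values were adjusted over all genes tested (Benjamini-Hochberg), without covariates. The SE for edgeR is the log2 fold change divided by the root of F. Residual correlations used log2 CPM with 0.5 added. Each fit was tested on simulated data with the same noise level for all genes and no outlying library or length trend. These simulations therefore do not cover such features of the P7 sets.

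The members, the partner and marker lists and the thresholds were chosen with earlier results of these data known. Genes were named by role or position, when called in any set, or, for the likeness to *Peg13*, by the 3 highest r. Of 24409 symbols, 24288 were placed on GRCm38, 23350 of them by their GENCODE M21 symbol and the rest through RefSeq names or synonyms. Alternatives covered filter, scaling, test, pseudocount, replicate block and each library left out. The trend on exon length was added after the data were seen.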

Additional observations from a re-analysis of the deposited data

Results flagged for a closer look

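In the P7 libraries in rounded TPM, *Kcnk9* had a Homo library that stood far from the other three of its group. Replicate 1 measured 8.86 TPM, against 13.4, 12.7 and 13.1 TPM, a gap of 0.858 of the range of the group. The same library was the lowest of its group for *Peg13* (56.1 TPM) and *Trappc9* (26.6 TPM), without passing that limit there. Without it, the log2 fold change of *Kcnk9* was 0.83 and that of *Peg13* 0.44. Of the groups of 4 libraries, 14 were looked at, and chance marks about 1 in 20.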

How the results depend on the processing

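The sign of the genotype difference of *Peg13* was the same under every alternative run at P22 and in the P7 counts. Under neuron marker scaling, chosen with earlier results known, it came close to 0. That scaling also moved the number of genes called to 2206 at P22 (2153 higher and 53 lower, against 269 and 218), to 28 in the P7 counts (from 0) and to 703 in the P7 TPM (9 higher and 694 lower, against 79 and 18), and the neighbours called to 10 and 2 at P22 and in the P7 TPM. DESeq2 called 48 genes in the P7 counts. In the P7 TPM, leaving out the TMM scaling gave 292 calls (283 higher and 9 lower) with a median of all genes at 0.12, 2 neighbours called and 1 of the 5 genes called, *Ago2*. Without the filter on low values, with the replicate block, or with the trend on exon length removed, 0 genes and 0 neighbours were called there, *Kcnk9* included.

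Leaving out each library gave 270 to 588 calls at P22 (270 without Het replicate 1, 285 without Het replicate 3 and 282 without Homo replicate 2), 0 to 1 of the 5 genes (*Ago2*, without Het replicate 2) and 1 to 2 neighbours. In the P7 counts it gave 0 of each. In the P7 TPM it gave 0 to 332 genes (332 without Homo replicate 1, and 0 without replicates 2, 3 or 4 of either genotype), 0 of the 5 genes and 0 to 3 neighbours.

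Replicate numbers gave no sign of pairing, but residuals centred within groups of 3 or 4 libraries cannot exclude it. Residuals of same-numbered libraries correlated between -0.0318 and 0.0159 at P22, between -0.204 and 0.0826 in the P7 counts and between -0.232 and -0.0119 in the P7 TPM. With the replicate block, 466 genes were called at P22 and 0 in the P7 counts, with 0 of the 5 genes in any set, 2 neighbours at P22 and 0 in the others, and *Kcnq1ot1* lost its call at P22 (adjusted p = 0.0615, edgeR). The depth of the libraries in TPM is unknown, and their low values are rounded.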
